A study of Homo sapiens with 6 samples.

Results

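The phosphoinositide 3-kinase (PI3K) and AKT core genes are 8 genes picked by gene symbol, with earlier results of these data known: the catalytic subunits PIK3CA, PIK3CB and PIK3CD, the regulatory subunits PIK3R1 and PIK3R2, the kinases AKT1 and AKT2, and the inhibitor PIK3IP1. All 8 were found among the 19421 genes that share one common scale in the deposited table. The table holds RNA sequencing values of 6 samples of A431, a human squamous carcinoma cell line with an amplified EGFR gene, cultured in DMEM and 10% FBS. In the 3 samples called shARID1A the cells expressed an shRNA directed at ARID1A, and in the 3 called shCONTROL they expressed a control shRNA. ARID1A encodes the DNA-binding subunit of the BAF chromatin remodelling complex. How many different shRNAs were used, and whether the samples of a group came from separate cultures, is not given, so the p-values reflect how far these samples differ among themselves, possibly for technical reasons alone. In bulk RNA, fewer cells of a kind and less RNA per cell cannot be told apart.

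PI3K is a lipid kinase that joins a catalytic subunit to a regulatory subunit, which holds it inactive until a growth factor receptor such as EGFR, or an adaptor protein bound to one, recruits it. The lipid it makes at the membrane recruits AKT, which is switched on there by PDPK1 and by the mTORC2 complex and then phosphorylates proteins of growth and survival, among them the FOXO transcription factors, which it keeps out of the nucleus. PI3K and AKT signalling is known as a main outlet of EGFR in epithelial tumours, and it is regulated largely on proteins and lipids, which RNA levels do not measure.

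None of the 7 core genes that could be tested passed the test, in either direction. The unit is FPKM, the reads of a gene divided by its length and by all reads assigned to genes in that sample. A gene was tested if its mean over the 6 samples was at least 1 FPKM, which left out PIK3CD. The test was limma on log2(FPKM + 1) with p-values adjusted by Benjamini-Hochberg across the 11599 genes that met the minimum and a threshold of 0.05, and every log2 fold change below is the shARID1A minus the shCONTROL mean on that scale, which understates the change of genes at low FPKM. By this rule 16.8% of all genes tested were called, 5.85% higher and 10.9% lower in shARID1A. The members' median log2 fold change was -0.07, against -0.08 over all genes tested. At an unadjusted p under 0.05 there was 1 member (PIK3IP1), against 33.9% of all genes tested. By limma voom on the read counts recovered from the FPKM values, 1 member (PIK3IP1) passed at an adjusted p of 0.0495, where 18.4% of all genes did.

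The target, ARID1A (gene ID 8289), measured 6.70, 7.62 and 7.31 FPKM in shARID1A, against 22.8, 22.8 and 23.8 FPKM in shCONTROL, and its log2 fold change was -1.55 ± 0.094 (SE, limma adjusted p = 0.000187). Reads assigned to genes numbered 32561039 to 36453744 in the shARID1A samples and 31658040 to 34647924 in the shCONTROL samples. Of 12 squamous epithelial markers, 10 had a mean of at least 1 FPKM. Their summed level was 1446 to 2191 FPKM in shARID1A and 1947 to 2331 FPKM in shCONTROL. Of the basal keratins, KRT14 was at most 0.85 FPKM in every sample, while KRT5 was 44.6 to 45.8 FPKM in shARID1A and 59.5 to 96.5 FPKM in shCONTROL (limma adjusted p = 0.0351). The basal transcription factor TP63 was 32.7 to 36.8 FPKM in shARID1A and 47.3 to 47.9 FPKM in shCONTROL (adjusted p = 0.0106). Of 7 fibroblast markers 2 reached a mean of 1 FPKM, and all 7 together summed to 10.3 to 12.5 FPKM in shARID1A and 6.56 to 8.96 FPKM in shCONTROL. None of the 4 endothelial markers that were measured reached it. What part these markers have in the results below was not tested.

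The start regions of 4 members are shown, those of the 3 genes that passed in at least 1 of the fits run and that of PIK3CA for its FOXO motif. They were taken from RefSeq (GRCh38.p14), which lists 17 starts for the 8 genes, and each window runs from 250 bases before to 50 bases after a start. The sequences are in lower case with the GC box (GGGCGG, or CCGCCC on the other strand) and the FOXO motif (GTAAACA, or TGTTTAC on the other strand) in capitals. The files do not say which start is used in these cells.
PIK3IP1, start 2 (chr22:31292439-31292738, minus strand): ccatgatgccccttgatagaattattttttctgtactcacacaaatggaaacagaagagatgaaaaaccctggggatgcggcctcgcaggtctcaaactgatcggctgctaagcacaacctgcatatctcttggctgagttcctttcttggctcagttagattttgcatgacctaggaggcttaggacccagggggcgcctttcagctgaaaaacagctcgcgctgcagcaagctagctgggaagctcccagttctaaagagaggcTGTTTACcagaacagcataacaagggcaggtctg
PIK3CD, start 1 (chr1:9651481-9651780, plus strand): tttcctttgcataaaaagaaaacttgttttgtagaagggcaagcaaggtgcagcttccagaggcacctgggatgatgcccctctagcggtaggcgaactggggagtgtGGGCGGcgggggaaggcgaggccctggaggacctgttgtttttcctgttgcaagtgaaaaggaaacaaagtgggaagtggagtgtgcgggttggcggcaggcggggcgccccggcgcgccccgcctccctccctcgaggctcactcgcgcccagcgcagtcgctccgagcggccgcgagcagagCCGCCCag
PIK3CA, start 1 (chr3:179148107-179148406, plus strand): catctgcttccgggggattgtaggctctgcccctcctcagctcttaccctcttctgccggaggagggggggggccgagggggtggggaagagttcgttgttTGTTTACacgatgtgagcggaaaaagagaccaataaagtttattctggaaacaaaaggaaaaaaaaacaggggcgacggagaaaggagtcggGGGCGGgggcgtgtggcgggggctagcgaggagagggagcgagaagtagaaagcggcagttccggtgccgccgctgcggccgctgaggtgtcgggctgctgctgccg
AKT1, start 1 (chr14:104795699-104795998, minus strand): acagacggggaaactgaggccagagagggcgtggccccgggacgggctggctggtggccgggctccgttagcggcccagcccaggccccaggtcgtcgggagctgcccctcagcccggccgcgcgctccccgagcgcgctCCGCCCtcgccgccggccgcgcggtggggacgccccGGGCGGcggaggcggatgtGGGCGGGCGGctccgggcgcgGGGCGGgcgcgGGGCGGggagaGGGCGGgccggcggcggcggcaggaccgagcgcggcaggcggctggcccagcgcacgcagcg
The AKT1 window held 7 GC box matches, some overlapping, at 83.3% GC and 49 CpG dinucleotides, while the PIK3IP1 window held none at 49.7% GC and 6 CpG. The PIK3CA and PIK3CD windows printed lay between them, with 60.7% and 63.3% GC. This order depends on the start chosen. PIK3CD start 2 had 80% GC and 5 GC box matches, and its start 3 had 45% GC and 1 match. AKT1 start 2 had 56.7% GC and 1 match. Over all windows of the members, 12 of 17 held a GC box, against 45.0% of the 35116 windows of all genes. A FOXO motif stood in 2 of the 17, the PIK3IP1 and PIK3CA windows printed, against 3.42% of all windows. The AP-1 motif (TGACTCA or TGAGTCA) and the E-box (CACGTG) had no match in the members' windows, against 4.95% and 7.26% of all windows. A match is a description of letters and not a measured binding site.

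Among the catalytic subunits, PIK3CA and PIK3CB carried nearly all of the signal and neither passed the test. PIK3CA (gene ID 5290), the ubiquitous catalytic subunit that is often mutated in tumours, stood at 11.6, 7.45 and 12.5 FPKM in shARID1A, against 11.3, 11.02 and 12.2 FPKM in shCONTROL. One shARID1A sample, replicate 2, was below all others, and the groups overlap. Its log2 fold change was -0.15, with a 95% interval from -0.54 to 0.24 (limma adjusted p = 0.578), and without shARID1A replicate 2 it was 0.059. PIK3CB (gene ID 5291), the other ubiquitous catalytic subunit, stood at 8.85, 7.94 and 12.4 FPKM in shARID1A, against 8.72, 8.80 and 9.06 FPKM in shCONTROL. Here shARID1A replicate 3 was above all others, the 3 shCONTROL samples lay close together, and the groups overlap. Its log2 fold change was 0.10, with a 95% interval from -0.25 to 0.44 (limma adjusted p = 0.681), and without shARID1A replicate 3 it was -0.070.

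PIK3CD (gene ID 5293), the catalytic subunit known mainly from leukocytes, was the least abundant member. It stood at 0.507, 0.454 and 0.368 FPKM in shARID1A, against 0.677, 0.931 and 1.03 FPKM in shCONTROL. These values rest on 69 to 100 reads in shARID1A and 116 to 194 reads in shCONTROL, and every shARID1A sample was below every shCONTROL sample. The mean was 0.443 ± 0.070 FPKM in shARID1A and 0.881 ± 0.18 FPKM in shCONTROL (SD, n = 3 each), 49.7% lower in shARID1A. In a limma fit without the minimum level, where 7.77% of 18973 genes were called, 5.17% lower and 2.6% higher, its log2 fold change was -0.38, with a 95% interval from -0.60 to -0.16 and an adjusted p of 0.0561, just over the threshold. Voom on recovered reads without the minimum, added after the data were seen, gave an adjusted p of 0.0349. The share of all genes that this voom fit called is not given here, so the value has no background beside it. Over all settings run for this gene the adjusted p lay between 0.0349 and 0.200. An exact permutation test, two-sided, returned p = 0.1, below which groups of 3 cannot go. Without the minimum, 20.6% of genes had all shARID1A samples below all shCONTROL samples.

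Markers of leukocytes, in which PIK3CD is best known, were measured beside it. PTPRC, the pan-leukocyte phosphatase, and CD3E, a T cell receptor component, were each at most 0.04 FPKM in every sample. The 9 leukocyte markers measured, of 12 listed, summed to 104 to 139 FPKM in shARID1A and 72.4 to 85.5 FPKM in shCONTROL. Of these, 4 had a mean of at least 1 FPKM, and RAC2, LCP1 and CD68 made up most of the sum. RAC2 averaged 70.4 FPKM in shARID1A and 41.3 FPKM in shCONTROL, LCP1 39.5 and 22.0 FPKM, and CD68 12.4 and 13.6 FPKM. The limma adjusted p was 0.00645 for RAC2 and 0.00904 for LCP1, both called higher in shARID1A, and 0.630 for CD68. The antisense gene PIK3CD-AS2 had 2 to 14 reads in shARID1A and 2 to 20 reads in shCONTROL. Whether counting used the strand is not given, so reads of PIK3CD and of this neighbour may not be fully separated.

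The regulatory subunits did not pass the test. PIK3R2 (gene ID 5296) encodes a regulatory subunit of the same family as PIK3R1. It stood at 18.2, 18.8 and 14.1 FPKM in shARID1A, against 20.3, 18.8 and 16.5 FPKM in shCONTROL. Replicate 3 was the lowest of its group in both groups, and the groups overlap. Its log2 fold change was -0.12, with a 95% interval from -0.42 to 0.19 (limma adjusted p = 0.576), and leaving out shARID1A replicate 3 turned the sign (0.0070). PIK3R1 (gene ID 5295), which encodes the main regulatory subunit, stood at 6.45, 5.43 and 5.52 FPKM in shARID1A, against 6.68, 5.89 and 5.82 FPKM in shCONTROL. Replicate 1 was the highest of its group in both groups. The log2 fold change was -0.07, with a 95% interval from -0.33 to 0.19 (limma adjusted p = 0.699).

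PIK3IP1 (gene ID 113791), a transmembrane protein that binds the catalytic subunit and restrains PI3K, was the tested member nearest to the threshold. It stood at 0.677, 0.956 and 0.747 FPKM in shARID1A, against 1.29, 1.22 and 2.18 FPKM in shCONTROL. All shARID1A samples were below all shCONTROL samples, and shCONTROL replicate 3 was well above the other two of its group. The mean was 0.793 ± 0.15 FPKM in shARID1A and 1.56 ± 0.54 FPKM in shCONTROL (SD, n = 3 each), 49.2% lower in shARID1A. The values rest on 61 to 77 reads in shARID1A and 101 to 187 reads in shCONTROL. The log2 fold change was -0.50, with a 95% interval from -0.87 to -0.12 and a limma adjusted p of 0.0714, so the call was not made. Voom on recovered reads, which adds no pseudocount of 1 FPKM, put the log2 fold change at -0.95 and the adjusted p at 0.0495. Without shCONTROL replicate 3 the log2 fold change was -0.33, and over all alternatives the adjusted p lay between 0.0495 and 0.210. The exact permutation test gave p = 0.1, again the smallest possible. Of all genes tested, the groups did not overlap for 38.8%, with shARID1A lower for 25.4% and higher for 13.4%. The antisense gene PIK3IP1-AS1 had 5 to 11 reads in shARID1A and 7 to 15 reads in shCONTROL, with the same reservation about strand.

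The AKT kinases were the most abundant members and did not pass the test. AKT1 (gene ID 207), the widely expressed isoform, stood at 66.5, 65.0 and 53.2 FPKM in shARID1A, against 56.5, 56.8 and 49.7 FPKM in shCONTROL. Replicates 1 and 2 of shARID1A were above all shCONTROL samples, while shARID1A replicate 3 lay within the shCONTROL range. The log2 fold change was 0.17, with a 95% interval from -0.08 to 0.43 (limma adjusted p = 0.309). It was 0.27 without shARID1A replicate 3 (adjusted p = 0.0542), 0.11 without shARID1A replicate 1 (adjusted p = 0.616) and 0.11 without shCONTROL replicate 3 (adjusted p = 0.572). AKT2 (gene ID 208), the isoform best known from insulin signalling, stood at 34.99, 42.9 and 29.8 FPKM in shARID1A, against 34.5, 34.0 and 31.3 FPKM in shCONTROL. The shARID1A samples included both the highest and the lowest value. AKT2 had a log2 fold change of 0.09 and a 95% interval from -0.21 to 0.40 (limma adjusted p = 0.659), and without shARID1A replicate 2 it was -0.040.

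**Figure D1:**
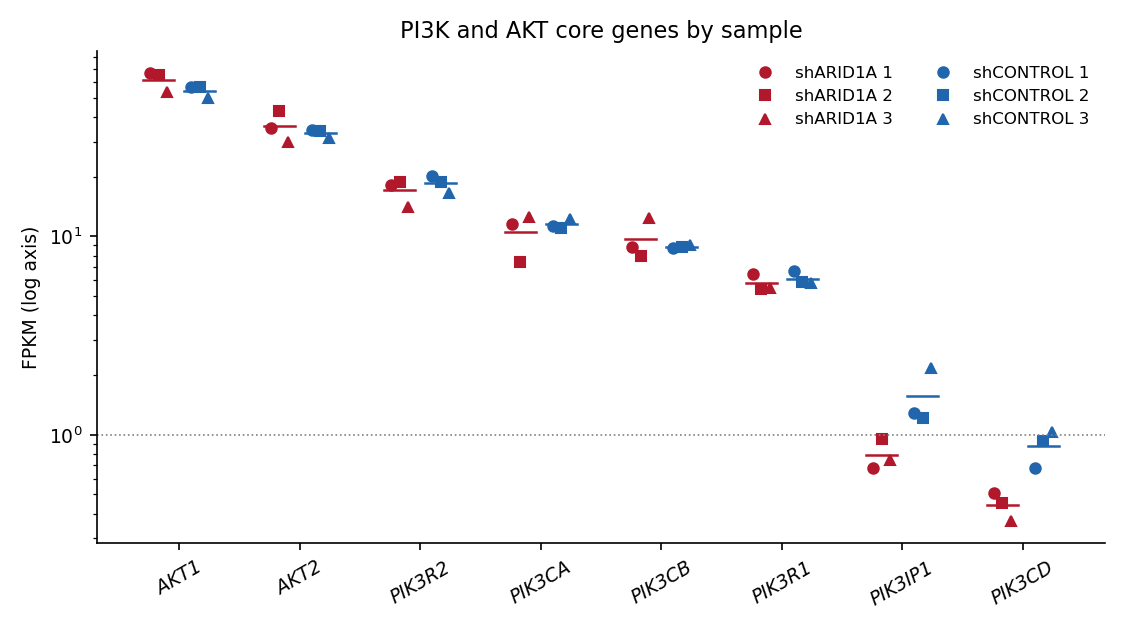
FPKM (log axis) of the 8 core genes in each of the 6 samples, ordered by mean level, with shARID1A left and shCONTROL right for each gene, a symbol per replicate number and a line at each group mean; the dotted line is the minimum mean of 1 FPKM. PIK3IP1 and PIK3CD are the genes whose groups do not overlap, at means of 0.793 and 0.443 FPKM in shARID1A and 1.56 and 0.881 FPKM in shCONTROL. Groups did not overlap for 38.8% of all genes tested, with shARID1A lower for 25.4%.

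**Figure D2:**
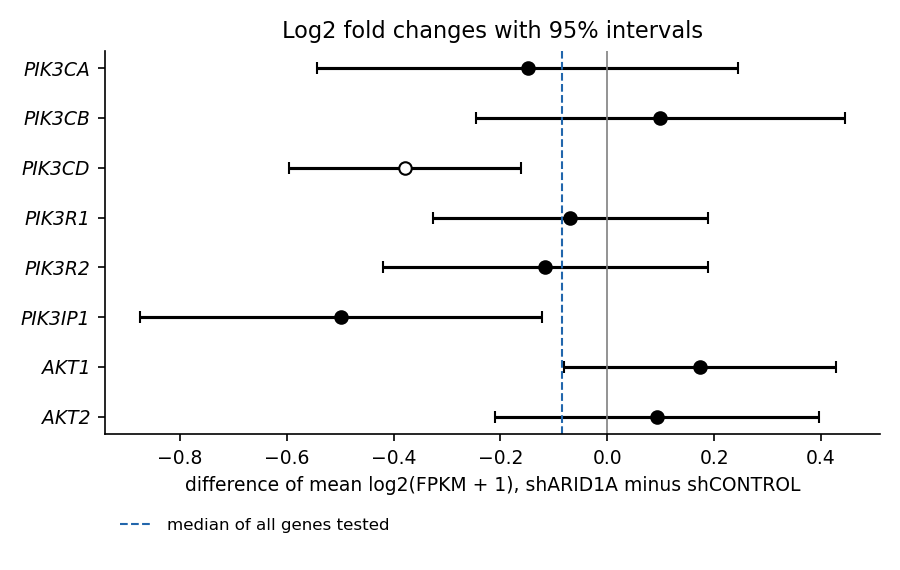
Log2 fold change (shARID1A minus shCONTROL, log2(FPKM + 1)) of each core gene with its 95% interval from limma; the open point is PIK3CD, from the fit without the minimum level, and the dashed line is the median of all genes tested, -0.08. The intervals of PIK3CD and PIK3IP1 lie below 0, but neither gene passed after adjustment.

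The order of levels per length was AKT1, AKT2, PIK3R2, PIK3CA, PIK3CB, PIK3R1, PIK3IP1 and PIK3CD. AKT1 stood 1.71 times above AKT2 in shARID1A and 1.63 times in shCONTROL, by the ratio of means, and PIK3R1 stood 7.31 times above PIK3IP1 in shARID1A and 3.92 times in shCONTROL. Neighbours in this order did not overlap within a group, with the exception of PIK3CA and PIK3CB in shARID1A, which did overlap there. Summed over a class, the catalytic subunits came to 20.7 ± 4.68 FPKM in shARID1A and 21.3 ± 0.89 FPKM in shCONTROL, and the regulatory subunits to 22.9 ± 2.79 FPKM in shARID1A and 24.6 ± 2.33 FPKM in shCONTROL. AKT1 and AKT2 together came to 97.5 ± 12.9 FPKM in shARID1A and 87.6 ± 5.69 FPKM in shCONTROL (SD, n = 3 each). The groups overlap for all of these sums, with exact permutation p-values of 0.9, 0.4 and 0.3.

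Within the catalytic class the PIK3CD share was the one whose groups did not overlap. PIK3CD made up 2.42%, 2.86% and 1.46% of the summed catalytic FPKM in shARID1A, against 3.27%, 4.49% and 4.64% in shCONTROL (exact two-sided permutation p = 0.1, the smallest possible). PIK3CA made up 50.6 ± 4.26% in shARID1A and 54.2 ± 0.91% in shCONTROL, and PIK3CB 47.1 ± 4.26% in shARID1A and 41.7 ± 0.91% in shCONTROL, with exact p-values of 0.4 and 0.2. PIK3R1 made up 25.5 ± 2.90% of the regulatory FPKM in shARID1A and 24.9 ± 1.15% in shCONTROL (SD, n = 3 each). AKT1 made up 65.5%, 60.2% and 64.1% of the summed AKT1 and AKT2 FPKM in shARID1A, against 62.1%, 62.5% and 61.4% in shCONTROL. The exact p-values of the last 2 were 0.9 and 0.5. Over these 5 shares no p-value could fall below 0.1, so none was adjusted.

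**Figure D3:**
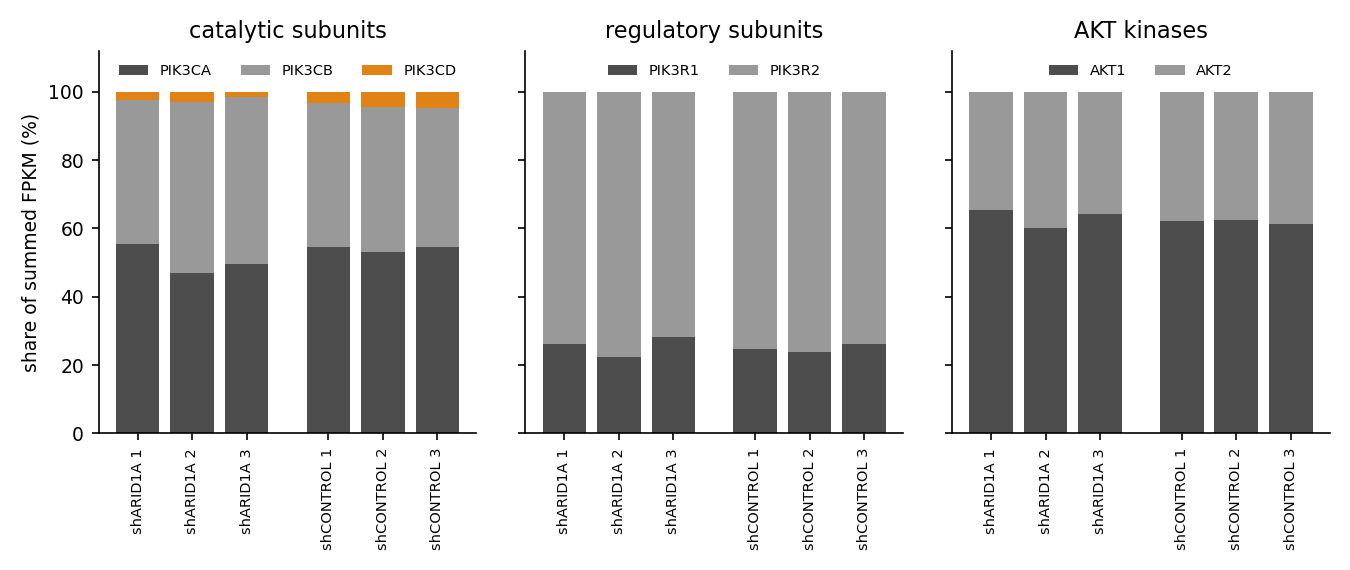
Share of the summed FPKM (%) that each gene takes in its class, as stacked bars per sample, shARID1A on the left and shCONTROL on the right of each panel. PIK3CD takes 1.46% to 2.86% of the catalytic class in shARID1A and 3.27% to 4.64% in shCONTROL, while the other shares overlap between groups.

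PIK3CA, PIK3CB, AKT1, AKT2 and PIK3R2 spread more among the shARID1A than among the shCONTROL samples, while PIK3IP1 and PIK3CD spread more among the shCONTROL samples. PIK3R1 also spread more in shARID1A, though by little (SD 0.563 FPKM, against 0.478 FPKM in shCONTROL). By the GC share of the longest GENCODE transcript, PIK3CA (34.8%), PIK3CB (39.4%) and PIK3R1 (40.3%) are GC-poor and fall in the lowest quintile of all genes tested. AKT2 (58.3%), AKT1 (58.7%) and PIK3R2 (64.2%) fall in the highest quintile, and PIK3IP1 (54.5%) in the one below it. Relative to the mean of its group on the log2 scale, shARID1A replicate 3 deviated by 0.26 for PIK3CA and 0.34 for PIK3CB, but by -0.25 for AKT2, -0.20 for AKT1 and -0.25 for PIK3R2. For shARID1A replicate 2 the same deviations were -0.42 and -0.24 for PIK3CA and PIK3CB, and 0.27, 0.08 and 0.14 for AKT2, AKT1 and PIK3R2. The first 2 of these genes are GC-poor and the other 3 GC-rich, and they deviated in opposite directions. PIK3R1 departed from this pattern, at -0.06 in replicate 3 and -0.08 in replicate 2.

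The medians over all genes tilted the same way. In the lowest GC quintile the median deviation was 0.25 in shARID1A replicate 3 and -0.23 in shARID1A replicate 2, and in the highest quintile it was -0.17 and 0.13. In the shCONTROL samples the medians of all quintiles lay between -0.04 and 0.03. Across the 11223 genes with a GC value, Spearman's rho between GC share and deviation was 0.147, 0.723 and -0.689 in shARID1A replicates 1, 2 and 3, and 0.046, 0.171 and -0.147 in shCONTROL replicates 1, 2 and 3. These are correlations across genes of one library, and deviations within a group sum to 0, so they are not independent of each other. A fit in which each sample's trend against GC was taken off, added after the data were seen, called 27% of all genes and 1 member. For AKT1 the log2 fold change was then 0.25 and the limma adjusted p 0.0479, where 14.5% of all genes tested were called higher. In that fit PIK3CB had an adjusted p of 0.0918 and PIK3IP1 one of 0.0797, and the signs of PIK3R1 and PIK3R2 turned. The correction also removes any true difference between groups that goes with GC. What part base composition has in the result for AKT1 was not tested beyond this fit.

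**Figure D4:**
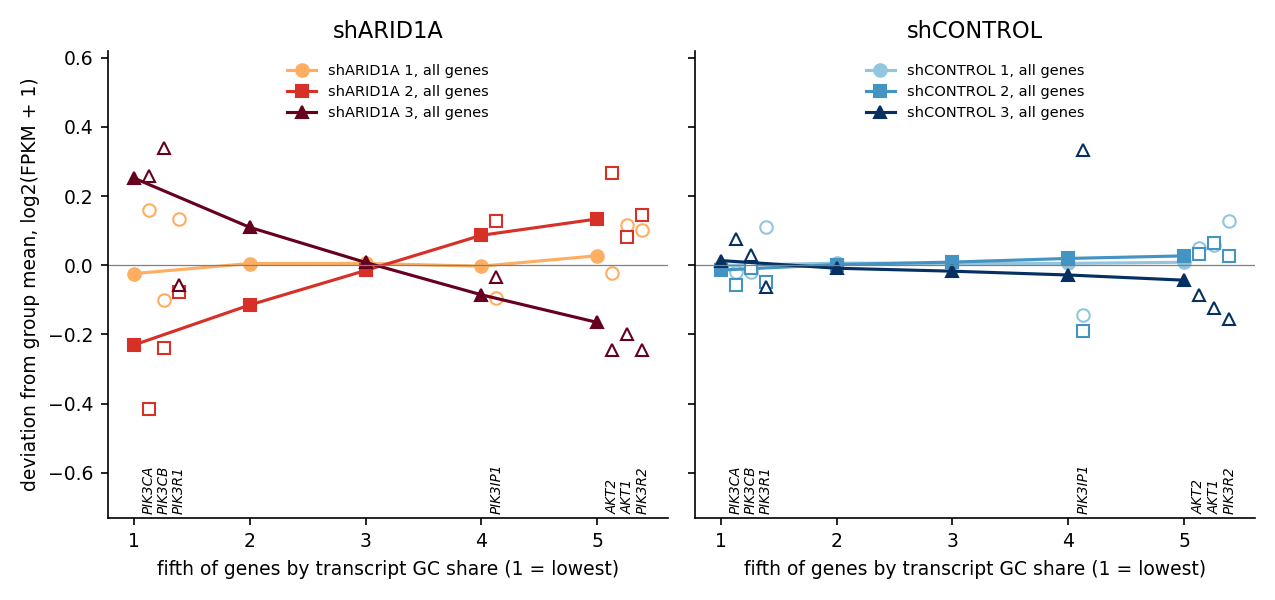
Deviation of each library from the mean of its group, in log2(FPKM + 1), by quintile of genes ranked on transcript GC share; filled symbols with lines are medians over all genes tested, and open symbols are the 7 tested core genes, named at the bottom. In shARID1A, replicate 3 goes down and replicate 2 up with GC share, and PIK3CA, PIK3CB, AKT1, AKT2 and PIK3R2 follow, while the shCONTROL medians stay between -0.04 and 0.03.

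The rest of the pathway and genes known as FOXO targets were read from 8 lists with 93 different genes besides the core. Of these, 76 were tested. Some genes stand in more than 1 list, among them RICTOR, IRS2 and TRIB1, which are also listed as FOXO targets. Of the 76, 1 rose (the receptor MET) and 20 fell. The median log2 fold change was -0.19, against -0.08 over all genes tested, of which 5.85% were called higher and 10.9% lower. Of the 20 that fell, 11 stand in the list of FOXO target genes, so these totals do not describe every list alike. The median was -0.40 in that list, -0.37 for lipid phosphatases, -0.29 for other class I and related genes and -0.15 for negative regulators. It was -0.12 for AKT substrates, -0.06 for kinases acting on AKT, -0.05 for receptors and adaptors and 0.43 for the 1 SGK kinase tested. The counts of single lists below are to be read against all 11599 genes tested. At an unadjusted p under 0.05, 1327 of these were higher and 2602 lower (22.4% lower). Voom called 743 higher and 1393 lower (12% lower), and blocking on the replicate number 942 and 1798 (15.5% lower). The number called depended on single libraries, in the pathway and over all genes. In the pathway it was 9 without shARID1A replicate 1, 9 without shCONTROL replicate 1, 8 without shCONTROL replicate 2 and 12 without shCONTROL replicate 3, but 33 without shARID1A replicate 3. Over all genes it was 786, 748, 587, 1408 and 3403 in the same order, against 1944 with all libraries. After quantile normalization 3 rose and 10 fell. Calls that held in every alternative run were those of IGF1R, INPP5K, PPP2R2B, TRIB3, BCL2L11, EGR1, GABARAPL1 and GADD45A, 8 of the 21.

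Among receptors and adaptors, 1 of 11 tested genes rose and 1 fell. EGFR stood at 37.7 ± 3.24 FPKM in shARID1A and 32.2 ± 1.88 FPKM in shCONTROL (limma adjusted p = 0.155), and it passed without shARID1A replicate 3 (adjusted p = 0.0454). MET, the hepatocyte growth factor receptor, rose to 56.0 ± 3.67 FPKM in shARID1A, against 43.1 ± 3.84 FPKM in shCONTROL (log2 fold change 0.37, adjusted p = 0.0376). Its call ended without shARID1A replicate 1, shCONTROL replicate 1 or shCONTROL replicate 2 (adjusted p up to 0.166). IGF1R, the insulin-like growth factor receptor, fell to 9.05 ± 0.24 FPKM in shARID1A, against 15.1 ± 1.42 FPKM in shCONTROL (log2 fold change -0.67, adjusted p = 0.00484).

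Of the other class I and related genes, 1 of 7 tested fell and 0 rose, with 0 higher and 3 lower at an unadjusted p under 0.05 and the same 0 and 1 by voom. With the replicate number as a block 2 fell, PIK3C2B being the second (adjusted p = 0.0394), a gene named after its value was seen. The gene that fell in both fits was PIK3C3, the class III enzyme that acts in autophagy and endosome traffic. It fell to 3.58 ± 0.38 FPKM in shARID1A, against 6.09 ± 0.15 FPKM in shCONTROL (log2 fold change -0.63, limma adjusted p = 0.00785), and missed the threshold without shCONTROL replicate 2 (adjusted p = 0.0504). PIK3R3, a further regulatory subunit of the core class, stood at 3.10 ± 0.32 FPKM in shARID1A and 2.98 ± 0.065 FPKM in shCONTROL (adjusted p = 0.837), and leaving out shARID1A replicate 3 turned the sign of its log2 fold change (-0.027).

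Of the lipid phosphatases, 3 of 6 tested genes fell and 0 rose. At an unadjusted p under 0.05 there were 0 higher and 4 lower, and voom called 0 and 3. INPP5K, which removes the 5-phosphate of phosphoinositides, fell to 2.44 ± 0.16 FPKM in shARID1A, against 5.33 ± 1.11 FPKM in shCONTROL (log2 fold change -0.87, limma adjusted p = 0.00738). INPP4A, a 4-phosphatase that acts downstream of PI3K, fell to 6.19 ± 0.44 FPKM in shARID1A, against 9.07 ± 1.39 FPKM in shCONTROL (adjusted p = 0.0354). INPPL1, the 5-phosphatase SHIP2, fell to 16.2 ± 1.40 FPKM in shARID1A, against 21.7 ± 2.33 FPKM in shCONTROL (adjusted p = 0.0449). The INPP4A call ended without any library but shARID1A replicate 3 (adjusted p up to 0.122), and the INPPL1 call without shARID1A replicate 1 or any shCONTROL library (up to 0.139).

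The list of kinases that act on AKT has 7 tested genes, some of which encode other subunits of mTORC2. Of these 0 passed, with 0 higher and 2 lower at an unadjusted p under 0.05, and voom called 1 lower. With the block 1 fell. This was RICTOR, the defining subunit of mTORC2, at 3.89, 3.31 and 5.26 FPKM in shARID1A, against 6.91, 6.67 and 5.55 FPKM in shCONTROL. Its log2 fold change was -0.53, and the limma adjusted p was 0.0519. Blocking on the replicate number gave 0.0468, voom 0.0316, GC correction 0.0214, and leaving out shARID1A replicate 3 gave 0.00681. In 14 of 20 alternatives RICTOR stayed uncalled, with adjusted p-values up to 0.177. PDPK1 stood at 11.7 ± 0.83 FPKM in shARID1A and 14.4 ± 1.15 FPKM in shCONTROL (adjusted p = 0.111).

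Of 12 genes listed as negative regulators of AKT, 3 fell and 0 rose. At an unadjusted p under 0.05, 1 was higher and 4 lower, and voom called 0 and 3. What each listed gene does to AKT in these cells was not tested. TRIB3, a pseudokinase that binds AKT and is also a target of the ATF4 stress response, fell to 17.97 ± 1.79 FPKM in shARID1A, against 48.4 ± 9.57 FPKM in shCONTROL (log2 fold change -1.37, limma adjusted p = 0.00160). The protein phosphatase 2A subunits PPP2R2B and PPP2R5A fell by 0.66 and 0.36 on the log2 scale (adjusted p = 0.00814 and 0.0450). The PPP2R5A call ended without any library but shARID1A replicate 3 (adjusted p up to 0.197).

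Of 14 AKT substrates, 1 fell and 0 rose, with 0 higher and 3 lower at an unadjusted p under 0.05 and 0 and 1 by voom. The one was FOXO4, at 0.766 ± 0.15 FPKM in shARID1A and 1.62 ± 0.37 FPKM in shCONTROL (limma adjusted p = 0.0335), and its call ended without any library but shARID1A replicate 3 (up to 0.124). The table lists FOXO4 a second time on another scale, at 1.12, 0.883 and 0.668 FPKM in shARID1A, against 1.03, 1.06 and 0.680 FPKM in shCONTROL. Those values overlap, so the FOXO4 result is uncertain. Of the SGK kinases, relatives of AKT, SGK1 was the one tested, at 1.56 ± 0.35 FPKM in shARID1A and 0.891 ± 0.12 FPKM in shCONTROL. The adjusted p was 0.0675. Blocking on the replicate number gave 0.0498, voom 0.0420, quantile normalization 0.0292, GC correction 0.0378, and leaving out shARID1A replicate 3 gave 0.0251. In 12 of 19 alternatives SGK1 stayed uncalled, with adjusted p-values up to 0.209.

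Of 23 tested genes known as FOXO targets, 11 fell and 0 rose, where 10.9% of all genes tested fell, and the median log2 fold change was -0.40, against -0.08 over all genes. At an unadjusted p under 0.05, 0 were higher and 17 lower, where 22.4% of all genes were lower. Voom called 0 higher and 12 lower, where it called 12% of all genes lower, and the fit with the block 0 and 14, where it called 15.5% lower. GABARAPL1, an autophagy protein, fell to 11.7 ± 2.31 FPKM in shARID1A, against 37.5 ± 10.6 FPKM in shCONTROL (log2 fold change -1.57, limma adjusted p = 0.00327). EGR1, an immediate early transcription factor, fell to 3.88 ± 1.18 FPKM in shARID1A, against 10.7 ± 3.16 FPKM in shCONTROL (-1.26, adjusted p = 0.00903). BCL2L11, which encodes the pro-apoptotic protein BIM, fell to 4.57 ± 0.088 FPKM in shARID1A, against 7.71 ± 0.34 FPKM in shCONTROL (-0.65, adjusted p = 0.00478). The growth arrest gene GADD45A fell with a log2 fold change of -0.63 (adjusted p = 0.00544). The other 7 were the ubiquitin ligase subunit FBXO32, the repressor BCL6, the mitochondrial kinase PINK1, the pocket protein RBL2, cyclin G2 (CCNG2), the co-activator CITED2 and the transcription factor KLF4, with log2 fold changes from -0.81 to -0.35.

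These genes have other known regulators as well, EGR1 through ERK and GADD45A through p53, and the list was compiled with earlier results of these data known. The list does not record whether FOXO factors raise or lower each gene, and FOXO activity was not tested. Of the FOXO factors besides FOXO4, none passed the test, and the groups overlap for FOXO1 but not for FOXO3. Among all genes tested, 25.4% had all shARID1A samples below all shCONTROL samples. FOXO1 was at 6.63, 5.81 and 6.55 FPKM in shARID1A, against 6.30, 6.37 and 6.37 FPKM in shCONTROL (limma adjusted p = 0.976), and FOXO3 at 14.8, 14.6 and 13.7 FPKM in shARID1A, against 18.8, 18.8 and 16.1 FPKM in shCONTROL (adjusted p = 0.0775). The number of FOXO targets that fell was 4 without shARID1A replicate 1, shCONTROL replicate 1 or shCONTROL replicate 2, 6 without shCONTROL replicate 3 and 5 after quantile normalization, with 0 higher in the main test. Without shARID1A replicate 1, shCONTROL replicate 1 or shCONTROL replicate 2, the calls for FBXO32, BCL6, PINK1, RBL2, CCNG2, CITED2 and KLF4 ended, with adjusted p-values up to 0.125, 0.116, 0.107, 0.152, 0.153, 0.112 and 0.146. FBXO32 also missed without shARID1A replicate 2, CITED2, KLF4 and PINK1 without shCONTROL replicate 3, and RBL2 and CCNG2 without either of these.

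**Figure D5:**
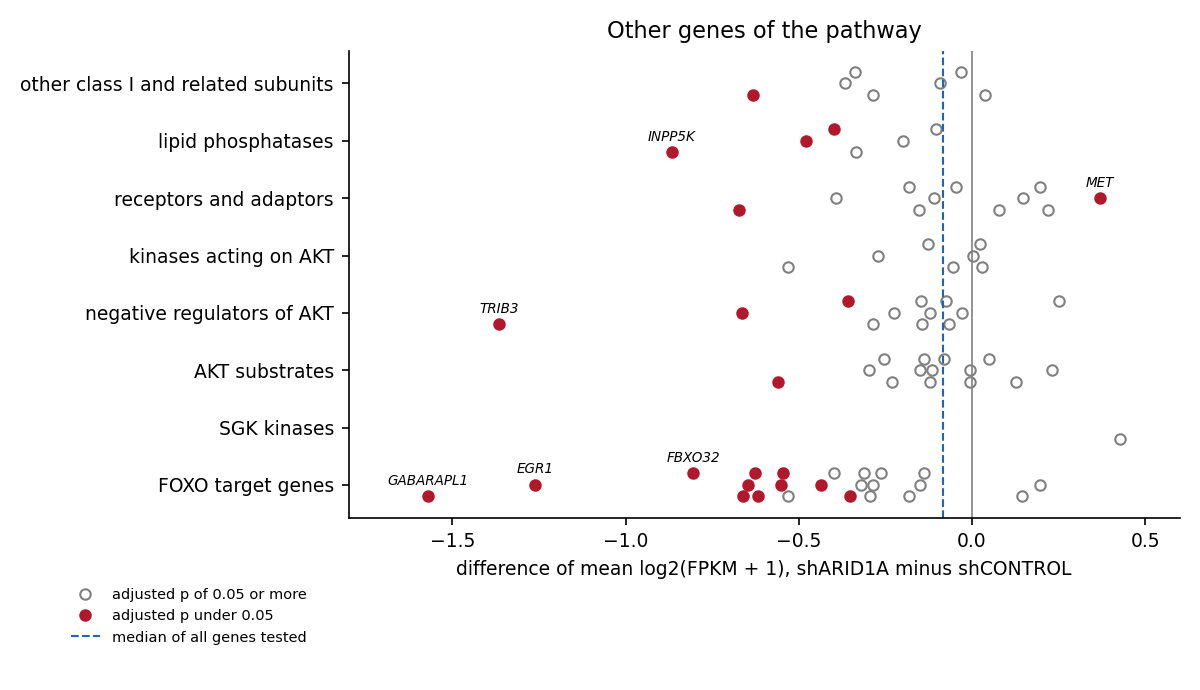
Log2 fold changes (shARID1A minus shCONTROL, log2(FPKM + 1)) of the tested genes of the 8 pathway lists, each point a gene; filled points passed the adjusted p threshold, open points did not, and the dashed line is the median of all genes tested, -0.08. The FOXO target list has 11 filled points, all below 0, with GABARAPL1 lowest at -1.57, and the vertical position within a list has no meaning.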

How the data were processed

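Total RNA of 6 A431 samples was sequenced, 3 per group, with groups and replicate numbers taken from the sample titles. HISAT2 2.0.5 and featureCounts 1.5.0-p1 are listed per the submitters' processing notes. Neither the genome build nor the strand setting is named in the labels or the table. FPKM values with gene lengths were deposited by the authors as 1 table, and 19421 of its 19814 gene rows share one scale, on which 100% of values were whole reads (tolerance 0.01 reads). The last 393 rows have another denominator and were not used.

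The test was limma 3.58.1 in R 4.3.3 (mean-variance trend, pseudocount of 1 FPKM, minimum mean of 1 FPKM, two-sided). PIK3CD, below the minimum, was fitted without it. Exact permutation tests were run with scipy 1.17.1. The limma step was tested on simulated data. No count model other than limma voom was used. GC shares come from GENCODE v29 transcripts matched by symbol (96.8% of genes tested).

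Members and pathway lists were chosen with earlier results of these data known. The text names the 8 members, ARID1A, PDPK1, PIK3R3, EGFR, the list genes past the threshold, and the gene with the smallest p where a list had none. Other genes the rule names are not reported here. FOXO1 and FOXO3 were named after their values were seen, as were the markers. Deviations from the group mean correlated between samples of equal number (0.321, 0.187 and 0.315 for numbers 1, 2 and 3). Between samples of unequal number the correlations lay from -0.302 to 0.0859. Deviations within a group sum to 0, so these values are not independent of each other. The numbers may or may not pair the samples, which the labels do not state. The main test, its intervals and the exact permutation tests did not use such a pairing. Blocking on the number was one alternative, which called 2740 genes, against 1944 in the main test. The others were pseudocounts of 0.1 and 5 FPKM, no minimum, a minimum of 5 FPKM, an equal FPKM sum per sample, upper quartile scaling, quantile normalization (also with the block), no trend, robust eBayes, voom and leaving out each sample. GC correction was added after the data were seen.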

Additional observations from a re-analysis of the deposited data

How the results depend on the processing

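Over the alternatives, the number of genes changed was 1944 as reported, 587 to 3403 without 1 library, 3130 after GC correction and 4003 after GC correction with the replicate block. Calls split into 679 higher and 1265 lower; quantile normalization made this 947 and 831, or 1316 and 1192 with the block, and GC correction 1677 and 1453. The number of members called was 0, and 1 with voom (PIK3IP1, log2 fold change -0.95) and with GC correction, without or with the block (1 each, AKT1, 0.25). PIK3CD had a log2 fold change of -0.98 and passed with voom run without the minimum. PIK3R1 turned to 0.060 after quantile normalization, without or with the block, and to 0.034 after GC correction, without or with the block, where PIK3R2 turned to 0.0025. The pathway count of 21 was 11 without a minimum, 13 with a minimum of 5 FPKM and 13 after quantile normalization, and the FOXO target count of 11 was 6, 7 and 5 in these settings. Without 1 library the counts ran from 8 to 33 and from 4 to 15, and the log2 fold changes from -0.28 to 0.059 (PIK3CA), -0.070 to 0.22 (PIK3CB), -0.19 to 0.0070 (PIK3R2), -0.040 to 0.22 (AKT2), 0.11 to 0.27 (AKT1) and -0.027 to 0.073 (PIK3R3). The replicate block gave RICTOR, SGK1 and PIK3C2B a call (adjusted p = 0.0468, 0.0498 and 0.0394) and changed no other call among the genes named. RICTOR was also called with a pseudocount of 5 FPKM, and RICTOR and SGK1 with voom and GC correction. The causes were not tested. PIK3CD and PIK3IP1 had the fewest reads of the members, 61 to 194 per sample.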
